A study of Mus musculus with 32 samples.

Results

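Intestinal epithelial cells secrete chloride to draw water into the lumen and absorb sodium chloride to reclaim it. For secretion, the cotransporter NKCC1 (Slc12a2) loads chloride across the basolateral membrane, the sodium pump (with the β-subunit Atp1b1) and potassium channels (Kcnq1 with its β-subunit Kcne3, and the calcium-activated Kcnn4) keep up the driving force, and apical channels (Cftr, opened by cyclic AMP, and in some epithelia the calcium-activated Ano1) let chloride leave. For absorption, the apical exchangers Slc26a3 (chloride for bicarbonate) and Slc9a3 (sodium for protons) work side by side. Acetylcholine acting on muscarinic receptors raises cell calcium and is a classic trigger of secretion in the colon. These 9 genes were taken by name from the 23517 genes of the mouse count table. Their mRNA levels and their change with the muscarinic agonist bethanechol (Bch) were described in cells from colonic organoids.

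Colonoids, epithelial organoids grown from proximal colonic crypts of Lgr5-EGFP-IRES-CreERT2 mice, were left untreated or given 250 nM Bch daily for 4 days. EGFP+ cells were sorted and sequenced in bulk from their 3′ ends. EGFP is made from the locus of Lgr5, a gene of crypt stem and progenitor cells. All mice carried this reporter, and all colonoids grew in L-WRN medium, conditioned medium that holds Wnt3a, R-spondin and noggin. Each of 8 mice gave 1 untreated and 1 Bch-treated sample with 2 technical replicates, which were summed, so that 32 libraries became 16 sums. The labels call BR1-BR4 male, their source sorted Lgr5+ cells and their kit RNeasy Plus Micro. BR7-BR10 carry no sex label and were taken as female because the design text of the series counts 4 mice of each sex, and their labels name colonic organoids and the RNeasy Mini kit, although sorted cell numbers are given for all 16 samples. Sex, labelled source and kit therefore cannot be told apart, and the sets are called by their mouse numbers. The ages of the mice are not given in the sources used here beyond the statement that mice were matched for age. Sums held between 557512 and 4050342 unique molecular identifiers (UMIs, 1 per counted molecule), so a gene with 0 UMIs could be present at up to 5.08 CPM, counts scaled to a common library total with TMM normalization, in the shallowest sum, untreated BR3, and at up to 0.722 CPM in the deepest, Bch-treated BR8. These limits take 3 counts as the bound and cover counting error only.

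Markers of the sorted cells were found in every sum. The summed level of 8 crypt stem genes, Lgr5 and Ascl2 among them, lay between 431 and 779 CPM. Genes of maturing epithelium were present as well, at 1393 to 2655 CPM for 9 colonocyte genes and 1888 to 5817 CPM for 7 goblet cell genes. Markers of cells outside the epithelium were low. Over all 16 sums there were 3 UMIs for Col1a1 and 48 UMIs for Acta2 of the fibroblast and smooth muscle list, 3, 6 and 17 UMIs for Ptprc, Csf1r and Lyz2 of immune cells, 5 UMIs for Pecam1 of endothelium, and 5 UMIs each for Elavl4 and S100b of enteric neurons and glia. Acta2 reached 5.08 CPM in 1 sum. Of the muscarinic receptors, Chrm3 had 12 UMIs and Chrm1 had 28 UMIs, and Chrm2, Chrm4 and Chrm5 were not analysed here.

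The members are spread over 6 chromosomes of the mouse genome (GRCm38, GENCODE M21). Cftr is on chromosome 6 (18170687 to 18322768, plus strand). Chromosome 7 holds 4 members: Kcnn4 (24370263 to 24386690, plus strand), Kcne3 (100176502 to 100184869, plus strand), Kcnq1 (143106362 to 143427042, plus strand) and Ano1 (144588549 to 144751974, minus strand). Atp1b1 is on chromosome 1 (164437109 to 164458355, minus strand), Slc26a3 on chromosome 12 (31390871 to 31473917, plus strand), Slc9a3 on chromosome 13 (74121457 to 74169442, plus strand) and Slc12a2 on chromosome 18 (57878678 to 57946821, plus strand). All are protein-coding genes. The last 500 bases of their annotated transcripts, where 3′ libraries count, were searched for stretches of 65 bases, the read length, that another gene shares. For Atp1b1, 38.0% of such stretches were shared with Nme7, a gene whose exons overlap it on the opposite strand, and for Kcnq1 it was 3.40%, with the antisense RNA Kcnq1ot1. Whether counting used the strand is not given in the sources used here, so these reads may be split between the genes. Nme7 had 1139 UMIs in all against 10570 for Atp1b1, and Kcnq1ot1 had 109 against 1533 for Kcnq1. The other 7 members shared none.

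The promoters of 3 members are shown: the apical chloride channel Cftr for secretion, the apical exchanger Slc26a3 for absorption, and the potassium channel subunit Kcne3. Untreated levels of Kcne3 did not overlap between the sets of mice, as for 7.98% of the genes tested. Its difference did not pass a Benjamini-Hochberg adjusted p of 0.05, as described further on. The promoter sequences come from RefSeq (GRCm38.p6). Windows of 250 bases before to 50 after a start site were used for 7 of the 9 members, with 2 windows for Kcne3. No window of Slc12a2 or Kcnq1 was examined here, so their promoters are not described. Capitals mark matches, on either strand, to the TATA box TATAAA, the GC box GGGCGG, the CDX motif TTTATG, the HNF1 motif GTTAAT, the HNF4 motif CAAAGTCCA, the cyclic AMP response element TGACGTCA or the AP-1 motif TGANTCA.

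Cftr, chr6:18170437-18170736, plus strand: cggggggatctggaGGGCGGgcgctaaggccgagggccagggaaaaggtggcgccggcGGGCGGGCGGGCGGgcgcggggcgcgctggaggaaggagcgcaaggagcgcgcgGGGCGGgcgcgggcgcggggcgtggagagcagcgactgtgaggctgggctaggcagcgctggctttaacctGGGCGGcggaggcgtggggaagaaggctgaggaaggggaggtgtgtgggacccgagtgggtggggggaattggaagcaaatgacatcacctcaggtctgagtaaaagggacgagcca

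Slc26a3, chr12:31437969-31438268, plus strand: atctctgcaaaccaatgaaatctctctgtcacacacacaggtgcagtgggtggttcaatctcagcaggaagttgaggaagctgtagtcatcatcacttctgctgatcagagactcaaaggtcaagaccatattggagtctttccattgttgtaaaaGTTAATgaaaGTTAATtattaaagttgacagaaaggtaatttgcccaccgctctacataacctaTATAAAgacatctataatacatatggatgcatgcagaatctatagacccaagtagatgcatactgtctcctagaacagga

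Kcne3, first window, chr7:100176420-100176719, plus strand: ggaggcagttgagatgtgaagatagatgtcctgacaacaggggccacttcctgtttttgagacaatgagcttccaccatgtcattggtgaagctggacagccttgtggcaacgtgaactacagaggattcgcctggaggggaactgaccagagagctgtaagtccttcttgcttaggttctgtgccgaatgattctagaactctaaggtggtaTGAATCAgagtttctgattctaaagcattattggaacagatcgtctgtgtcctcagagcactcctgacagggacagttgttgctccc

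Kcne3, second window, chr7:100178433-100178732, plus strand: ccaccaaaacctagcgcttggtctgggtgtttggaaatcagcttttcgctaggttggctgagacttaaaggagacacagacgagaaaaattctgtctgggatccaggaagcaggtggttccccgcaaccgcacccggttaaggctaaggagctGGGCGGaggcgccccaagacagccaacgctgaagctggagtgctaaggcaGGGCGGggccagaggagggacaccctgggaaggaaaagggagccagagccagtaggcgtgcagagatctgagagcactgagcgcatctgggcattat

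The windows of Cftr and Slc26a3 differed in base composition, with 71.3% and 39.3% G and C against a median of 52.7% over 32851 promoters of 27025 genes. Cftr held 6 GC boxes, some of them overlapping or adjoining, a motif found in 35.7% of all promoters. Slc26a3 held none of these but a TATA box 30 bases before the start site (13.6% of promoters) and HNF1 motifs at 94 and 84 bases before it (7.1% of promoters). The first window of Kcne3 held an AP-1 match 37 bases before the start site (7.81% of promoters), and the second held 2 GC boxes. These are letter matches only, with no measurement of binding.

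Levels were calculated as CPM with TMM normalization over the 16 sums. Libraries counted 1 UMI per molecule near its 3′ end, so levels were compared between samples and not between genes. Of the members, 8 were found in at least 15 of the 16 sums. Slc9a3 had 1 UMI among 32544115 (Bch-treated BR1), a level of 0.0307 CPM of this total, without TMM, with an exact Poisson 95% interval of 0.000778 to 0.171 CPM, and was not tested. It is also among 1520 genes with blank entries for technical replicate 2, which were read as 0.

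**Figure D1:**
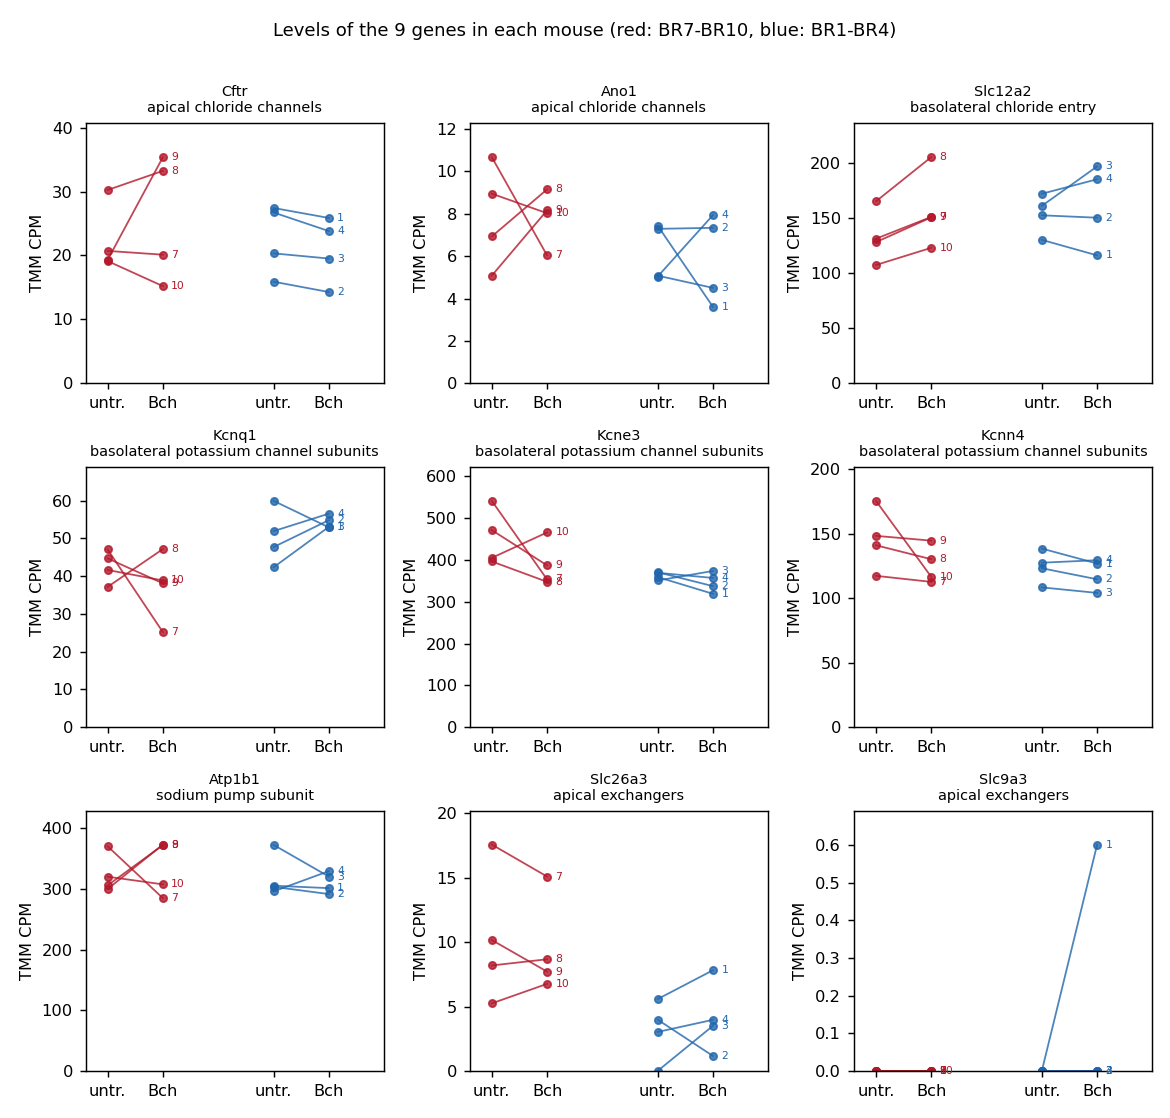
TMM-normalized CPM of each member in the 16 sums, on a linear axis that starts at 0, with a line joining the untreated (untr.) and the Bch-treated sum of each mouse and the mouse number at its right end. Slc12a2 is higher with Bch in all 4 lines of BR7-BR10, Kcnn4 is lower in all 4 of them, Slc26a3 lies at 5.25 to 17.6 CPM in untreated BR7-BR10 against 0 to 5.58 CPM in untreated BR1-BR4, and Slc9a3 has 1 point above 0.

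To learn whether Bch changed the secretory genes in BR7-BR10, treated and untreated sums were compared within mice with edgeR's quasi-likelihood test over 9515 genes. No member passed the threshold of a Benjamini-Hochberg adjusted p of 0.05. Neither did any other gene, so percent called was 0, and DESeq2 also called 0. At an unadjusted p under 0.05, 360 genes (3.78%) were called by edgeR and 123 by DESeq2, with 0 of the 8 members tested among them.

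Slc12a2, the chloride entry step, was the member with the smallest p in BR7-BR10. Untreated levels in BR7, BR8, BR9 and BR10 were 131, 165, 128 and 107 CPM, and levels with Bch were 151, 205, 151 and 123 CPM. Every mouse was higher with Bch, while the ranges of the groups overlapped. The log2 fold change was 0.24 (SE 0.14, 95% confidence interval -0.04 to 0.52, edgeR adjusted p = 0.999). With any 1 mouse left out, it lay between 0.24 and 0.25.

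The potassium channel genes had lower fitted values with Bch in BR7-BR10, none past the threshold. Kcnn4, the calcium-activated channel, stood at 117, 141, 148 and 176 CPM untreated and at 113, 130, 145 and 117 CPM with Bch, lower in 4 of 4 mice. Its log2 fold change of -0.21 (SE 0.14, adjusted p = 0.999) rested largely on BR10, without which it was -0.08. In BR10 the summed goblet cell genes were at 2172 CPM untreated and 4047 CPM with Bch, and the stem cell genes at 615 and 505 CPM. The part of this in the value was not tested. Across all 9515 genes, 11.3% moved in the same direction in 4 of 4 mice, against 2 of the 8 members, Slc12a2 and Kcnn4.

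Kcne3, the β-subunit that holds Kcnq1 open in the basolateral membrane, was at 541, 396, 471 and 405 CPM untreated and at 353, 347, 387 and 466 CPM with Bch. BR10 was higher with Bch and the other mice lower, and the fitted log2 value was -0.21 (SE 0.14, adjusted p = 0.999). Without BR7 the value was -0.09 and without BR10 it was -0.36. Kcnq1 itself was at 47.1, 37.2, 44.7 and 41.7 CPM untreated and at 25.2, 47.2, 38.1 and 38.9 CPM with Bch, which gave -0.17 (SE 0.20, adjusted p = 0.999). This value also rested on BR7, whose Bch-treated sum was the lowest of the 8, and was 0.0060 without it. The same sum had the lowest level of the stem cell list, 431 CPM against 505 to 582 CPM in the other Bch-treated sums of the set. It had the highest summed goblet cell genes among them (5817 against 3029 to 4047 CPM) and the highest summed enteroendocrine genes (1099 against 467 to 495 CPM). It was also the shallowest sum of the set, with 1066102 UMIs, 25 of them for Kcnq1. The part of these in the value was not tested.

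The apical channels had no common direction among mice. Cftr was at 20.7, 30.2, 19.3 and 19.1 CPM untreated and at 20.1, 33.2, 35.4 and 15.2 CPM with Bch. BR8 and BR9 were higher with Bch and BR7 and BR10 lower, and the fit gave a log2 fold change of 0.18 (SE 0.24, adjusted p = 0.999) that turned to -0.07 without BR9. Ano1 was low, at 5.08 to 10.7 CPM untreated and 6.04 to 9.15 CPM with Bch, from 6 to 38 UMIs a sum, and its log2 fold change was 0.06 (SE 0.37, 95% interval -0.68 to 0.80). Ano1 also marks interstitial cells of Cajal, the pacemaker cells of the gut wall, the other markers of which were Etv1, a transcription factor, with 8 UMIs over all 16 sums, and the receptor Kit with 145 UMIs against 238 for Ano1. Kit lay at 2.03 to 6.28 CPM untreated and 2.11 to 7.22 CPM with Bch in BR7-BR10, and the part of such cells in the level of Ano1 was not tested.

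Atp1b1 and Slc26a3 were closest to 0. Atp1b1, the pump subunit, was at 370.4, 299.8, 306 and 320 CPM untreated and at 285, 373, 372 and 308 CPM with Bch, and its log2 fold change was 0.05 (SE 0.14, 95% interval -0.23 to 0.33). Slc26a3, the exchanger of absorptive colonocytes, was at 17.6, 8.19, 10.2 and 5.25 CPM untreated and at 15.1, 8.67, 7.71 and 6.76 CPM with Bch, with a log2 fold change of -0.05 (SE 0.34, 95% interval -0.73 to 0.64). Both were higher with Bch in 2 mice and lower in 2.

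In BR1-BR4, 2 of 9509 genes (0.021%) passed the threshold and DESeq2 called 15. None of the 7 members tested was among the genes called by edgeR, and DESeq2 gave none of them an adjusted p. None had an unadjusted edgeR p under 0.05, where 734 genes (7.72%) did. Slc26a3 did not pass the filter on low counts and was not tested here.

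Cftr was lower with Bch in each of BR1-BR4. It was at 27.4, 15.9, 20.3 and 26.7 CPM in untreated BR1, BR2, BR3 and BR4 and at 25.9, 14.3, 19.5 and 23.8 CPM with Bch. The log2 ratios lay between -0.16 and -0.06, while the mice themselves differed from each other by more, and the log2 fold change was -0.13 (SE 0.23, adjusted p = 0.950). Of all 9509 genes, 15.3% moved in the same direction in 4 of 4 mice, against 1 of the 7 members.

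For the other members tested, the mice of BR1-BR4 went both ways. Slc12a2 was at 130.2, 152, 161 and 172 CPM untreated and at 116, 150.2, 197 and 185 CPM with Bch, lower in BR1 and BR2 and higher in BR3 and BR4, with a log2 fold change of 0.03 (SE 0.11). Kcne3 was at 359, 370.4, 351 and 369 CPM untreated and at 319, 337, 373 and 357 CPM with Bch, with a log2 fold change of -0.08 (SE 0.09, 95% interval -0.27 to 0.10). Kcnn4, Kcnq1, Atp1b1 and Ano1 gave log2 fold changes of -0.08, 0.09, -0.04 and -0.10, each with an interval that held 0. Ano1 had the widest of these intervals, from -0.96 to 0.77 on the log2 scale, with 3 UMIs in untreated BR3.

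Slc26a3 could only be described in BR1-BR4. It was at 5.58, 3.98, 0 and 3.03 CPM untreated and at 7.82, 1.16, 3.50 and 3.97 CPM with Bch, from 24 UMIs in all untreated and 31 UMIs with Bch. The value of 0 was in untreated BR3, the sum whose depth allows up to 5.08 CPM for a gene not seen, so a change in this mouse was not detectable at this depth.

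Over all 8 mice in one fit of 10280 genes, again 0 genes passed the threshold (0%, and 0 with DESeq2), and 555 genes (5.4%) had an unadjusted p under 0.05, with 0 of 8 members among them. Kcnn4 was lower with Bch in 7 of 8 mice, at -0.14 on the log2 scale (SE 0.09, 95% interval -0.32 to 0.03). Kcne3 was lower in 6 of 8, at -0.15 (SE 0.08, interval -0.31 to 0.02). Slc12a2 was higher in 6 of 8, with 0.14 (SE 0.08, interval -0.03 to 0.31). The adjusted p was 0.906 for each of these 3 genes. Without BR10 the value for Kcnn4 was -0.08, and without BR7 that for Kcne3 was -0.09. For the pump subunit Atp1b1 the fold was 1.00, and its 95% interval reached from 0.896 to 1.12.

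**Figure D2:**
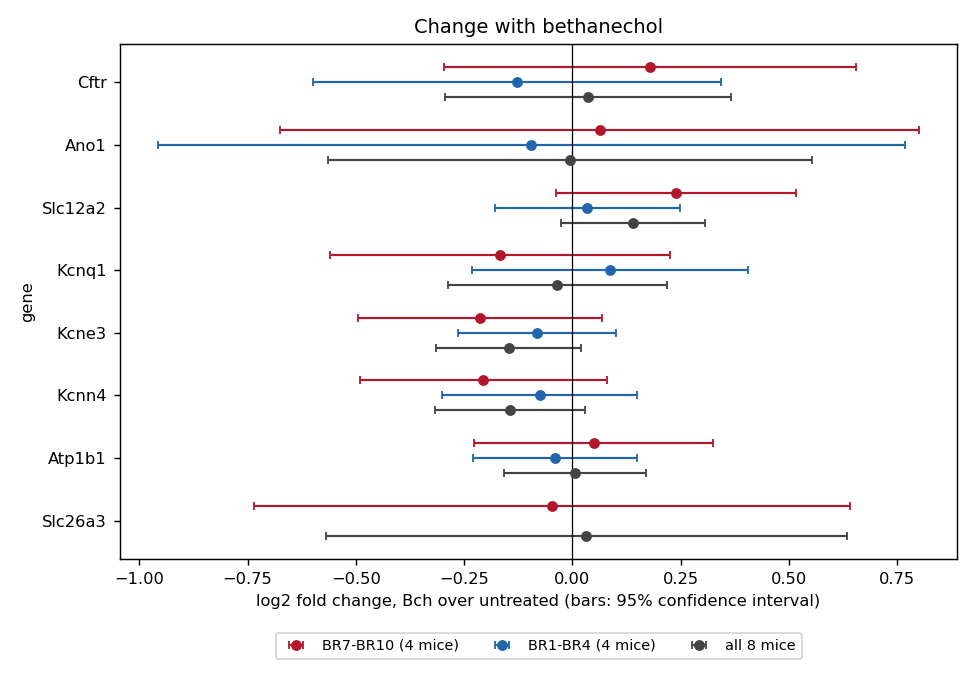
Log2 fold change of Bch over untreated from edgeR's paired fit for each tested member, in BR7-BR10 (red), BR1-BR4 (blue) and all 8 mice (grey), with 95% confidence intervals. Every interval holds 0, and those of Ano1 and Slc26a3, the members with the fewest UMIs among those tested, are the widest.

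Whether the response differed between the sets was tested as an interaction of set and Bch over the 16 sums. Of 10280 genes, 0 passed the threshold with either tool (0%), and 451 (4.39%) had an unadjusted p under 0.05, with 0 of the 8 members among them. The difference in log2 fold change, BR7-BR10 minus BR1-BR4, was 0.30 for Cftr (SE 0.33, 95% interval -0.36 to 0.96), 0.20 for Slc12a2 (SE 0.17) and -0.25 for Kcnq1 (SE 0.25). For Kcne3 and Kcnn4 it was -0.13 each (SE 0.17 and 0.18). The value for Slc12a2 lay between 0.17 and 0.28 with any 1 mouse left out. The other 4 rested on single mice, with 0.07 for Cftr without BR9, -0.09 for Kcnq1 and -0.02 for Kcne3 without BR7, and -0.0042 for Kcnn4 without BR10. A difference between the sets was thus not detected for any member, and the intervals of Ano1 and Slc26a3 reached 1.28 and -1.52 on the log2 scale.

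The untreated sums show the resting levels, and these were compared between the sets without a block. Here 150 of 9159 genes (1.64%) passed the threshold, 89 higher and 61 lower in BR7-BR10, and DESeq2 called 187. None of the 8 members tested was among the 150. At an unadjusted p under 0.05, 1164 genes (12.7%) were called, and 2 members were among them, Slc26a3 and Kcne3.

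Slc26a3 had the largest difference among the members. Untreated BR7-BR10 held 17.6, 8.19, 10.2 and 5.25 CPM and untreated BR1-BR4 held 5.58, 3.98, 0 and 3.03 CPM, so that BR10 lay just under BR1 and the ranges overlapped. The log2 fold change was 1.40 (SE 0.48, 95% interval 0.43 to 2.37), or 2.64-fold, with an edgeR unadjusted p of 0.00603 and an adjusted p of 0.158. When any 1 mouse was left out the log2 value stayed between 1.02 and 1.76. The Bch-treated sums of the same mice gave 1.21 (SE 0.44, adjusted p = 0.170).

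Genes of mature colonocytes had values of the same sign. Their summed level in untreated sums was 2033 to 2643 CPM in BR7-BR10 and 1447 to 2342 CPM in BR1-BR4, and all 8 colonocyte genes tested had a positive log2 fold change, of which 2, Aqp8 and the membrane mucin Muc3, passed the threshold. The summed stem cell list was lower in BR7-BR10, at 523 to 615 against 678 to 779 CPM. Of its 8 genes, 6 had a negative log2 fold change and 2 a positive one, Rgmb (0.36, SE 0.20) and Smoc2 (0.13, SE 0.15). Past the threshold were Ascl2 (log2 fold change -0.51, adjusted p = 0.0319) and Axin2 (-0.84, adjusted p = 0.0472), with Lgr5 at -0.87 (adjusted p = 0.0592). Summed enteroendocrine genes were at 511 to 1019 against 305 to 492 CPM, and summed goblet cell genes at 2172 to 4770 against 2176 to 2703 CPM. Of the 7 goblet cell genes tested, 6 had a positive log2 fold change and 1 a negative one. Fcgbp went the other way, with means of 31.3 CPM in BR7-BR10 and 50.2 CPM in BR1-BR4. Whether a difference in the mix of cells or in RNA per cell lies behind the level of Slc26a3 cannot be told apart in bulk samples, and the part of the marker genes in it was not tested.

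The sex-linked Xist and Eif2s3y had ranges that were apart between the sets and were above 0 on both sides. Xist, the RNA that coats the inactive X chromosome, was at 44.7 to 162 CPM in the 8 sums of BR7-BR10 and at 11.9 to 24.5 CPM in the 8 sums of BR1-BR4. The Y-linked Eif2s3y was at 37.2 to 64.1 CPM in BR1-BR4 and at 2.53 to 8.64 CPM in BR7-BR10, with no sum at 0. Ddx3y, also Y-linked, had 95 UMIs in BR1-BR4 and 24 UMIs in BR7-BR10, and its ranges overlapped, at 4.01 to 15.2 CPM and 0.422 to 5.03 CPM. The Y-linked Uty and Kdm5d had ranges that were apart, at 2.32 to 8.62 and 2.41 to 11.9 CPM in BR1-BR4 and at 0 to 1.69 and 0 to 1.26 CPM in BR7-BR10, where each was at 0 in 2 of the 8 sums. What part this has in the differences between the sets was not tested.

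Kcne3 was the member whose untreated levels did not overlap between the sets, at 396 to 541 CPM in BR7-BR10 and 351 to 370.4 CPM in BR1-BR4. Ranges were apart in this way for 7.98% of the 9159 genes tested. The log2 fold change was 0.31 (SE 0.12, 95% interval 0.06 to 0.56) with an edgeR adjusted p of 0.241. It was 0.20 without BR7 and 0.37 without BR10. With Bch the ranges overlapped, at 347 to 466 and 319 to 373 CPM, and the difference was 0.18 (SE 0.13).

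Its partner Kcnq1 had the opposite sign. Untreated levels were 37.2 to 47.1 CPM in BR7-BR10 and 42.4 to 60.0 CPM in BR1-BR4 (log2 fold change -0.28, SE 0.18, adjusted p = 0.552). In the Bch-treated sums the ranges were apart, at 25.2 to 47.2 CPM against 52.9 to 56.6 CPM, with -0.49 (SE 0.17, adjusted p = 0.157). Ranges were apart for 7.58% of the 9639 genes tested in these sums, of which 2.06% had an adjusted and 13.4% an unadjusted p under 0.05. These comparisons use the same mice as the untreated ones and are not independent of them.

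For the remaining members the 95% intervals of the untreated difference held 0. Ano1 was at 5.08 to 10.7 CPM in untreated BR7-BR10 and 5.04 to 7.44 CPM in untreated BR1-BR4, with a log2 fold change of 0.30 (SE 0.39, 95% interval -0.49 to 1.10) that was 0.14 without BR7. Untreated Slc12a2 was at 107 to 165 CPM in BR7-BR10 and 130.2 to 172 CPM in BR1-BR4 (log2 fold change -0.22, SE 0.14), and Kcnn4 at 117 to 176 against 108 to 139 CPM (0.21, SE 0.13). Without BR10 these values were -0.12 and 0.11. Cftr had means of 22.3 ± 5.31 and 22.6 ± 5.49 CPM (SD, n = 4 mice each), and Atp1b1 had 324 ± 32.0 and 319 ± 35.8 CPM. For Cftr and Atp1b1, the difference was far smaller than the spread between mice.

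**Figure D3:**
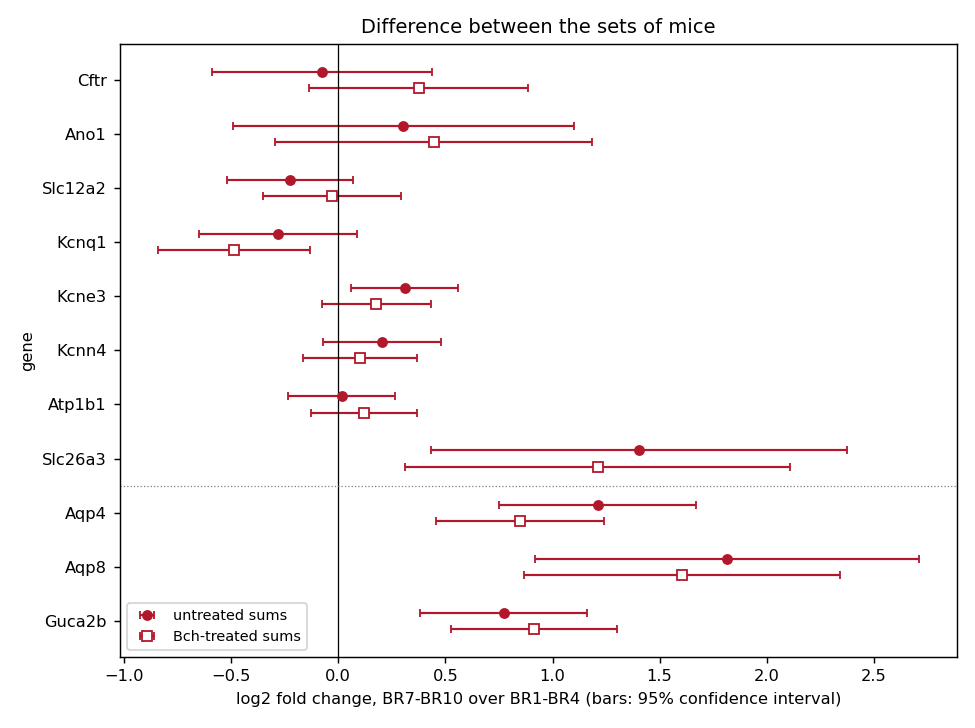
Log2 fold change of BR7-BR10 over BR1-BR4 with 95% confidence intervals, in untreated sums (filled circles) and Bch-treated sums (open squares), for the 8 tested members and, under the dotted line, the 3 genes of the wider lists that passed the threshold in untreated sums. Slc26a3 lies at 1.40 and 1.21, near Aqp4 and Aqp8, with wider intervals than the other members.

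To place the members, 86 other genes of epithelial ion and water transport and its control were listed, of which 77 are in the table. Among the 86 are Slc4a1ap, which encodes an adaptor protein and was among the genes tested, and the antisense RNA Kcnq1ot1, which was not, both placed by symbol. With Bch, 0 of 51 tested in BR7-BR10 and 0 of 46 tested in BR1-BR4 passed the threshold. Their median log2 fold changes were 0.07 and 0.00 against 0.00 over all genes in each set. At an unadjusted p under 0.05, 1 of the 51 was called in BR7-BR10, higher with Bch, where 3.78% of all genes were called. In BR1-BR4 it was 3 of the 46, 1 higher and 2 lower, where 7.72% of all genes were called. These counts are not above those shares, so the genes named next are given as values only.

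In BR7-BR10 the gene with an unadjusted p under 0.05 was Slc4a7, a sodium bicarbonate cotransporter (log2 fold change 0.59, SE 0.27, adjusted p = 0.999), higher in 3 of 4 mice. The next smallest p in this direction belonged to the protease Tmprss2 (0.28, SE 0.16) and to Guca2a, which encodes guanylin, a peptide that stimulates secretion through guanylate cyclase (0.21, SE 0.14). On the lower side were the kinases Sgk1 (-0.58, SE 0.44) and Prkg2 (-0.57, SE 0.45), which act on the epithelial sodium channel and on Cftr, and the channel-activating protease Prss8 (-0.22, SE 0.17). None of these 6 intervals other than that of Slc4a7 excluded 0.

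In BR1-BR4 the carbonic anhydrase Car1, an abundant enzyme of colonocytes, had the smallest p of the lists (log2 fold change -0.41, SE 0.12, adjusted p = 0.195). It was lower in BR1, BR2 and BR3 and at a log2 ratio of 0.01 in BR4, and it passed the threshold when no filter on low counts was used (-0.38, adjusted p = 0.0105). Adenylate cyclase Adcy6, a source of the cyclic AMP that opens Cftr, was lower in 4 of 4 mice (-0.56, SE 0.25, adjusted p = 0.588), and Scnn1a, the α-subunit of the epithelial sodium channel, was higher in 4 of 4 (0.77, SE 0.35, adjusted p = 0.595) from 42 UMIs untreated and 100 UMIs with Bch. Vipr1, a receptor for the secretagogue VIP, stood at -0.60 (SE 0.34), Tmprss4 at 0.19 (SE 0.10) and Aqp4 at 0.39 (SE 0.22).

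**Figure D4:**
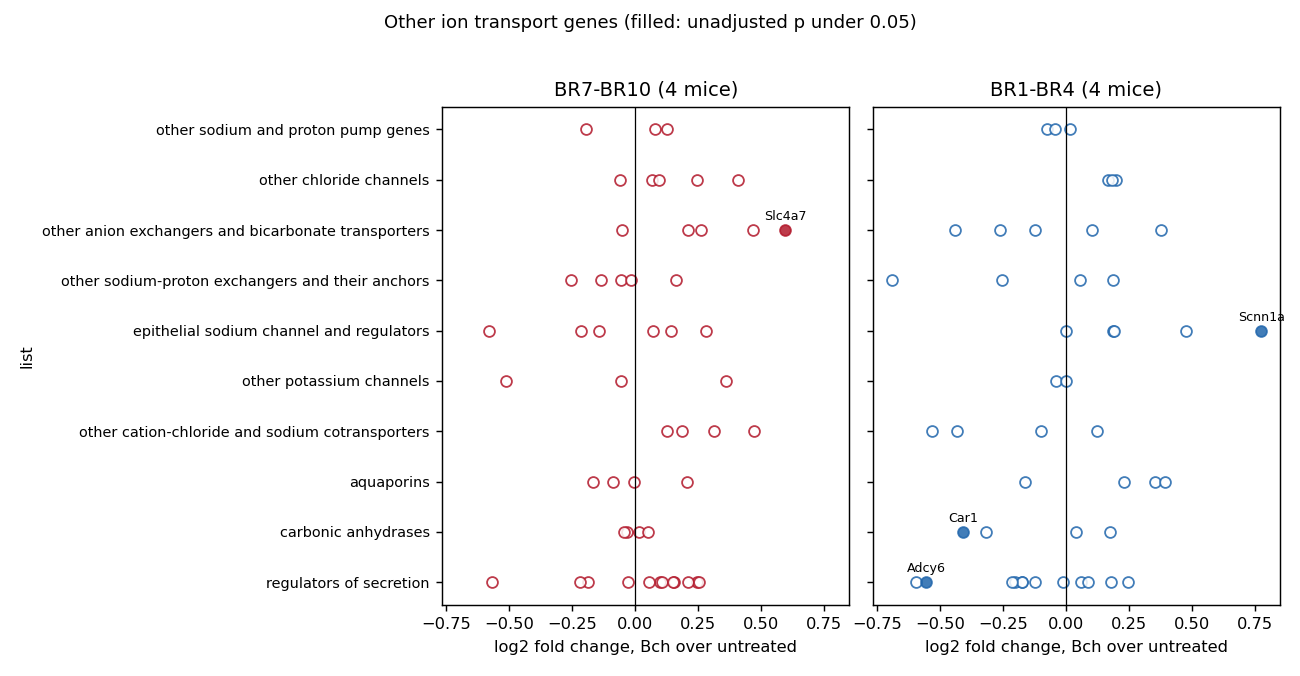
Log2 fold change of Bch over untreated for each tested gene of the wider ion transport lists, 1 row per list, in BR7-BR10 (left) and BR1-BR4 (right), with genes at an unadjusted p under 0.05 filled and named. Points lie on both sides of 0 in most lists, with 1 filled gene in BR7-BR10 and 3 in BR1-BR4, and 0 of the 51 and 46 genes passed the threshold after adjustment.

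Between the untreated sets, 3 of the 52 tested genes of these lists passed the threshold (edgeR), all higher in BR7-BR10, against 1.64% of all genes. The water channel Aqp4 was at 38.6 to 75.0 CPM against 15.2 to 30.7 CPM (log2 fold change 1.21, SE 0.23, adjusted p = 0.00209). Aqp8, a water channel of surface colonocytes that also stands in the colonocyte list, was at 8.19 to 38.3 against 4.18 to 9.94 CPM (1.81, SE 0.43, adjusted p = 0.0321). Guca2b, which encodes uroguanylin, was at 109 to 208 against 69.1 to 104 CPM (0.77, SE 0.19, adjusted p = 0.0368). With any 1 mouse left out Aqp4 stayed past the threshold, while Aqp8 and Guca2b lost it without BR1, BR3, BR4, BR7 or BR9.

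By list, 2 of 4 aquaporins and 1 of 14 regulators of secretion passed, while 0 of 6 genes of the epithelial sodium channel and its regulators, 0 of 5 genes of sodium-proton exchangers and their anchors and 0 of 5 other chloride channels did. All 6 genes of the sodium channel list, of which Scnn1a is the channel subunit and the others are regulators such as Sgk1 and Prss8, and all 5 of the exchanger list, which also holds the anchors Slc9a3r1 and Slc9a3r2, had a positive log2 fold change, with medians of 0.32 and 0.38 against -0.02 over all genes. All 4 of the other cation-chloride and sodium cotransporters had a negative one (median -0.08), as did 4 of the 5 other chloride channels (median -0.16). Over all lists 31 of the 52 values were positive, against 47.9% of all genes. The lists were drawn up with earlier results of these data known. In the Bch-treated sums 7 of 48 tested genes passed, namely Aqp4, Aqp8, Guca2a, Guca2b, Clca1, Slc26a2 and Kcnk6, and all were higher in BR7-BR10. Over all genes 2.06% passed there, 119 higher and 80 lower. Clca1 is a goblet cell product, and Slc26a2 is a sulfate transporter of the same family as Slc26a3.

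How far members varied together from sum to sum was described without a test. After the mean of each set was taken out, Pearson's r of log2 CPM between pairs of the 6 members above 10 CPM (16 sums, 8 from each set, which share mice in pairs) lay between -0.41 for Cftr with Kcne3 and 0.39 for Kcnq1 with Kcne3 and with Kcnn4. Among 7288 genes above 10 CPM, the pattern most like that of Slc12a2 was that of Car8 (r = 0.85), followed by Huwe1 (0.84), and the values within each set lay between 0.82 and 0.90. The genes most like Cftr were Tgm2 (0.82) and Btbd3 (0.79). These were chosen as the highest of all correlations computed and are given as a description.

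For Kcne3, and for Kcnq1 with Dusp23, the likeness was less even between sets. Kcnq1 was closest to Igbp1 (0.92) and Dusp23 (0.88), and with Dusp23 r was 0.96 within BR7-BR10 but 0.48 within BR1-BR4. Kcne3 was closest to Gm8971 and Ndufaf2 (0.81 each), with 0.94 and 0.89 within BR7-BR10 but -0.10 and 0.31 within BR1-BR4, where Kcne3 itself ranged over only 319 to 373 CPM. Kcnn4 was closest to Aifm1 (0.88) and Larp7 (0.87), and Atp1b1 to Parn (0.90) and Tmem63a (0.87). Within sets these lay between 0.80 and 0.94 for Kcnn4 and between 0.81 and 0.96 for Atp1b1.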

How the data were processed

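Bulk 3′ RNA-seq of sorted Lgr5-EGFP+ cells was analysed in 32 libraries of 8 mice. The authors primed cDNA with barcoded oligo-dT carrying UMIs and ran the Drop-seq pipeline with GRCm38 and GENCODE M25, and they deposited UMI counts per gene without normalization. The labels' processing notes name GRCh38 for all samples, while the paper's methods give GRCm38 for mouse. Handling of strand and of reads matching several genes is not given in the sources used here. Every sample column was mapped by its title.

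Technical replicates were summed, and blank entries were read as 0. Tests used R 4.3.3, edgeR 4.0.16 (filterByExpr, TMM, robust quasi-likelihood fit, mouse as a block) and, as an alternative, DESeq2 1.42.0. Genes were called at p under 0.05 after Benjamini-Hochberg adjustment over all genes tested. A standard error is the fitted log2 value over the root of its F statistic, and a prior count of 2 entered log2 ratios of single mice. The sets were compared without a block. Fits were tested on simulated data. Positions were read from GENCODE M21 and promoters from RefSeq.

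Pairing comes from the labels, since sums with 1 number are cells of 1 mouse. Deviations of these pairs from group means correlated across genes by 0.0715, 0.151, 0.00341 and -0.0202 in BR7, BR8, BR9 and BR10, and by 0.245, 0.0329, 0.0617 and 0.0840 in BR1, BR2, BR3 and BR4. In the fits with mouse as a block, p-values set the paired change against its spread between mice. With 1 sum per mouse and treatment, that spread includes differences between cultures and libraries. In the comparison of sets, p-values set the difference against the spread of levels between mice.

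Members, gene lists and tests were chosen with earlier results of these data known. The text names all 9 members, every gene of the wider lists past the threshold, the 3 genes per direction and set with the smallest p with Bch, and the 2 genes most like each member above 10 CPM. Kcnk6, Clca1, Guca2a and Slc26a2 in the Bch-treated sums, sex-linked genes and genes overlapping members were added after their values were seen. Alternatives covered the tool, size factors, filter, block, technical replicates, a joint fit and leaving out each mouse, and the comparison of Bch-treated sums between the sets was chosen after seeing the data.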

Additional observations from a re-analysis of the deposited data

Results flagged for a closer look

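In groups of 4 mice, the gap between the highest or lowest sample and its nearest neighbour was set against the whole range of the group (Dixon's 95% value). Of 48 groups of member levels and log2 ratios, 3 held a sample that stood apart, where chance gives about 1 in 20. Cftr in untreated BR8 was at 30.2 CPM while the other untreated mice of BR7-BR10 were at 19.1 to 20.7 CPM. Kcnn4 had a log2 ratio of Bch over untreated of -0.59 in BR10, against -0.11 to -0.04 in BR7, BR8 and BR9. Atp1b1 in untreated BR3, the sum with the fewest UMIs, was at 373 CPM against 296 to 305 CPM in the other untreated mice of BR1-BR4.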

How the results depend on the processing

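No member passed the threshold under any alternative run, and of 447 log2 values of members under alternatives 404 kept their sign while 43 turned it, each of them not past the threshold on either side. The cause of these turns was not tested.

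Without the replicate block the count over all genes in BR1-BR4 went from 2 to 0, the value for Slc26a3 in all 8 mice was -0.067, and the block changed no other call. In BR1-BR4 the count over all genes was 15 with DESeq2, 88 without the filter on low counts, 9 with technical replicate 1 alone and 0 in one fit of 16 sums, and without the filter 1 gene of the wider lists, Car1, was called. Technical replicate 1 alone turned Slc12a2 to -0.030, Kcnq1 to -0.064 and Atp1b1 to 0.029 there. Without the filter, 1 gene was called for the interaction, 15 in all 8 mice and 234 between untreated sets, 5 of them in the wider lists (Clca1 and Guca2a beside the 3 named). In all 8 mice Atp1b1 turned to -0.0028 with DESeq2 and -0.0029 with RLE size factors. With Bch-treated sums 7 genes of the wider lists were called between the sets, and Cftr turned to 0.37.

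Leaving out each mouse in turn, counts over all genes ranged from 0 to 4 in BR7-BR10, 0 to 19 in BR1-BR4, 0 to 1 in all 8 mice and 74 to 210 between untreated sets (wider lists, 1 to 5). Log2 values that turned sign ranged, in BR7-BR10, from -0.069 to 0.34 for Cftr, -0.12 to 0.27 for Ano1, -0.33 to 0.0060 for Kcnq1, -0.029 to 0.18 for Atp1b1 and -0.18 to 0.071 for Slc26a3. In BR1-BR4 they ranged from -0.39 to 0.21 for Ano1, -0.018 to 0.093 for Slc12a2 and -0.10 to 0.030 for Atp1b1, and for the interaction from -0.13 to 0.48 for Ano1 and -0.74 to 0.014 for Slc26a3. In all 8 mice they ranged from -0.10 to 0.083 for Cftr, -0.11 to 0.11 for Ano1, -0.085 to 0.050 for Kcnq1, -0.037 to 0.054 for Atp1b1 and -0.047 to 0.16 for Slc26a3. Between untreated sets they ranged from -0.25 to 0.026 for Cftr and -0.062 to 0.11 for Atp1b1. Depth limits Ano1, Slc26a3 and Slc9a3 most, with at most 38, 36 and 1 UMIs in a sum.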
